A study of Mus musculus with 40 samples.

Results

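Acid-base genes of intercalated cells were followed in the right kidney of mice whose left kidney had been removed. The 10 genes were taken by name, as known acid and base handling genes of these cells, with no threshold on a measured value. They are the anion exchangers Slc4a1, Slc26a4 and Slc4a9, the proton pump subunits Atp6v1b1, Atp6v0d2 and Atp6v1g3, the carbonic anhydrase Car2, the ammonia channels Rhcg and Rhbg, and the transcription factor Foxi1. All 10 were present among the 28467 genes of the bulk table and among the 32285 genes of the nucleus table. The animals were male C57BL/6 mice aged 8 to 12 weeks that had either unilateral nephrectomy (UNx) of the left kidney or a sham operation with both kidneys left in place. Bulk RNA-seq covered kidney cross-sections at 24, 48 and 72 h after surgery, with 6 UNx and 6 sham libraries at each time. Single nucleus RNA-seq covered 24 h, with 2 UNx and 2 sham mice. Surgery was under isoflurane in all groups, with saline and buprenorphine given at the time, and the sham operation is described as similar apart from kidney removal. A cross-section mixes all cell types of the kidney.

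Intercalated cells are the minority cells of the connecting tubule and collecting duct that set the final acidity of urine. Type A cells pump protons into the urine with a vacuolar H+-ATPase and return bicarbonate to the blood through the exchanger AE1, the product of Slc4a1. Type B cells run in the opposite sense and secrete bicarbonate through pendrin, the product of Slc26a4, with AE4, the product of Slc4a9, on the blood side. Carbonic anhydrase II, the product of Car2, makes protons and bicarbonate inside both types and in other tubule cells. Rhcg and Rhbg carry ammonia, the main buffer for secreted acid, and occur in principal cells too. Foxi1 is the forkhead factor needed for intercalated cells to form.

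In GENCODE M21 on GRCm38, Slc4a1 (ENSMUSG00000006574) spans chr11:102348824-102366203 and Slc26a4 (ENSMUSG00000020651) spans chr12:31519827-31559969. The pump subunit genes are Atp6v1b1 (ENSMUSG00000006269) at chr6:83742990-83758855, Atp6v0d2 (ENSMUSG00000028238) at chr4:19876841-19922605 and Atp6v1g3 (ENSMUSG00000026394) at chr1:138273738-138289462. Car2 (ENSMUSG00000027562) lies at chr3:14886273-14900770 and Rhbg (ENSMUSG00000104445) at chr3:88242874-88254709. Rhcg (ENSMUSG00000030549) lies at chr7:79593363-79617657 and Foxi1 (ENSMUSG00000047861) at chr11:34204338-34208089. The remaining member, Slc4a9, is identified as ENSMUSG00000024485.

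Promoter sequence, from 250 bases before to 50 bases after the gene start in RefSeq on GRCm38.p6, was matched for 5 of the 10 genes. A pair is shown, a gene of type B cells (Slc26a4) and a pump gene of both intercalated types (Atp6v1b1), of which 1 holds the motif searched and 1 does not. Whether they responded differently to nephrectomy was not tested. Capitals mark the forkhead core TGTTTA, which was searched on both strands (TAAACA on the other). Atp6v1b1 is at chr6:83742767-83743066 on the plus strand and Slc26a4 at chr12:31559935-31560234 on the minus strand.
Atp6v1b1: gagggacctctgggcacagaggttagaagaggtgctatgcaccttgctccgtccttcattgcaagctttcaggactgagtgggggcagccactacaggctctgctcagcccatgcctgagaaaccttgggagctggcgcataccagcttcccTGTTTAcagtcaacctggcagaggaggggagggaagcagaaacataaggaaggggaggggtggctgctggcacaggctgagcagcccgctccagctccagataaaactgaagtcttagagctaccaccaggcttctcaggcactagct
Slc26a4: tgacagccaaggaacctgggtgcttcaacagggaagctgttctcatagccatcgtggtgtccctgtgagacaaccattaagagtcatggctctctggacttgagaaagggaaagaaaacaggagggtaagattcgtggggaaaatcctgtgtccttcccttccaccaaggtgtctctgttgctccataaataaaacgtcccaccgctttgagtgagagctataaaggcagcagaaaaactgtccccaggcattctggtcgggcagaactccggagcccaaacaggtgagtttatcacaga
The core occurred once, in Atp6v1b1, starting at position -98 from the gene start, and these letters were not found in the windows of Slc26a4, Atp6v1g3, Rhcg or Foxi1. It occurred in 13.4% of all 32851 RefSeq promoters of this length, and a match is a description of the letters and not a mapped site.

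The 36 bulk libraries held 14868494 to 24108587 estimated counts. The labels put the 24 h libraries in batch 1 and those of 48 and 72 h in batch 2. Mitochondrially encoded genes took 13.6% to 16.1% of counts in the batch 2 libraries other than UNx 48 h replicates 1 to 5. In those 5 libraries they took 25.8% to 26.4%, a range that lies within the 21.5% to 26.7% of the 24 h libraries. The 48 h results of named genes are therefore given with and without these 5 libraries. Without them a single UNx library remains, replicate 6, and no gene of the whole table, the other gene lists included, was called at 48 h. In bulk tissue, fewer cells of a type and less RNA per cell cannot be told apart.

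The nucleus data placed the genes in their cells. The authors' annotation of 16500 nuclei has 30 classes, of which 23 had at least 10 nuclei in every mouse, and 2 of them, ICA with 293 nuclei and ICB with 161, are intercalated. Other markers of type A cells, Kit at 669, Aqp6 at 395 and Dmrt2 at 212 CPM (counts scaled to a common library total, mean of 4 mice), were highest in ICA, and Insrr, a type B marker, was highest in ICB at 726 CPM. Hmx2, listed as a type A marker, went against this with 162 CPM in ICB and 0.664 CPM in ICA. Since the listed genes help to define these classes, their levels across classes are a description without a test.

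Slc4a1 was a type A gene, with a mean of 204 CPM ± 87.8 (SD, n = 4 mice) in ICA, and the next class, DTL2 of the thin limb, reached 6.06 CPM. Slc26a4 was a type B gene, with 6011 CPM ± 2085 (SD, n = 4) in ICB against 20.2 CPM in the distal convoluted tubule class DCT. Slc4a9 was highest in ICB at 3320 CPM ± 1686 (SD, n = 4), and ICA followed at 953 CPM ± 581 (SD, n = 4). The lowest ICB mouse was above the highest ICA mouse for Slc4a9, and the third class, CTAL1 of the thick ascending limb, had 20.5 CPM. Of the 293 ICA nuclei, 161 had both a UMI of Slc4a1 and a UMI of Slc4a9, before thinning and with no doublet caller run. The share with a UMI of Slc4a9 was 77.5% in ICA and 3.93% in the proximal class PTS1, and that of Slc4a1 was 68.3% and 2.30%. After thinning to 1754 UMIs a nucleus these shares were 56.3% and 0.704% for Slc4a9 and 31.4% and 0.371% for Slc4a1.

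The 3 pump subunits had their highest means in the intercalated classes, and for each of them the ICA and ICB ranges overlapped. Atp6v0d2, of the membrane sector of the pump, had 1313 CPM ± 749.7 (SD, n = 4) in ICB and 997 CPM ± 536 (SD, n = 4) in ICA, and the third class, CTAL1, had 16.0 CPM. Atp6v1g3, a stalk subunit, had 934 CPM ± 636 (SD, n = 4) in ICB and 649.99 CPM ± 439 (SD, n = 4) in ICA. Atp6v1b1, the B1 subunit of the catalytic sector, was less restricted: 469.99 CPM in ICB and 449 CPM in ICA were followed by 155 CPM in the connecting tubule class CNT and 121 CPM in CTAL1. Of all Atp6v1b1 UMIs, 31.0% came from intercalated nuclei and 25.8% from the thick ascending limb classes, whereas 87.4% of Atp6v0d2 UMIs were intercalated.

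Car2, Rhcg and Rhbg were the broadly expressed members. Car2 had 709.7 CPM in ICB, 619 CPM in ICA, 314 CPM in cortical principal nuclei (CPC), 156 CPM in the medullary thick limb (MTAL) and 143 CPM in the proximal class PTS1, with overlapping ranges between neighbours in this order. Proximal nuclei held 40.4% of Car2 UMIs and intercalated nuclei 15.2%, so a bulk change in Car2 cannot be assigned to intercalated cells. Rhcg was the only member whose highest mean was outside ICA and ICB, at 533 CPM in CNT, 529.5 CPM in ICA, 504 CPM in CPC and 435 CPM in ICB, which did not differ beyond their spread. Rhbg had 141 CPM in ICA, 96.0 CPM in CNT and 73.8 CPM in ICB, also overlapping, and then 32.2 CPM in CPC. Foxi1 was at 85.5 CPM in ICB and 52.4 CPM in ICA, and the third class had 2.91 CPM. Intercalated nuclei held 68.5% of Foxi1 UMIs, from 427 UMIs in all.

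**Figure D1:**
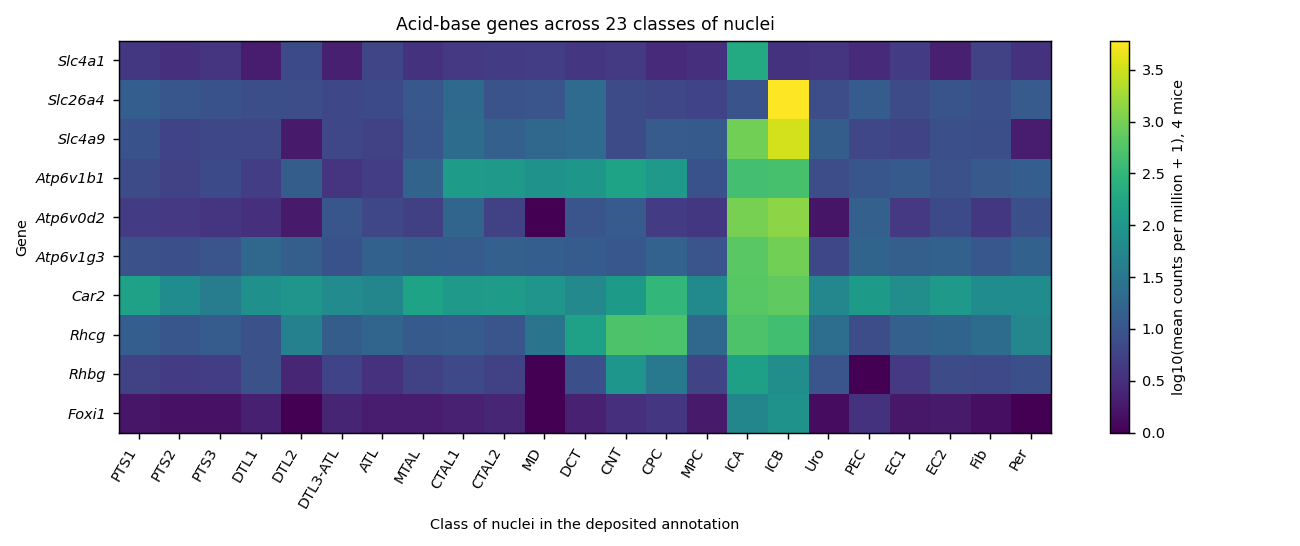
Mean level of each gene (rows) in 23 classes of nuclei (columns), as log10 of the mean CPM of 4 mice plus 1. Slc4a1 stands out in ICA, Slc26a4 in ICB, and Slc4a9, Atp6v0d2, Atp6v1g3 and Foxi1 in both, while Atp6v1b1, Car2, Rhcg and Rhbg extend to other distal classes.

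At 24 h, 2 of the 10 rose (Car2 and Rhbg) and 2 fell (Slc26a4 and Atp6v0d2) by edgeR's quasi-likelihood test at an adjusted p under 0.05. Among all genes, 27.0% of 14104 tested genes were called, 13.9% higher and 13.1% lower, and 4 of 10 is near that background. With all libraries at 48 h, 1 rose (Car2) and 2 fell (Slc26a4 and Rhcg), against 32.6% of 14280 genes called, 16.8% higher and 15.8% lower. At 72 h none of the 10 passed, against 1.68% of 14556 genes (1.20% higher and 0.488% lower). At that time 5 of the 10 had an unadjusted p under 0.05, a level reached by 17.0% of all genes. The median log2 fold change of the 10 genes was 0.048 at 24 h, -0.037 at 48 h and -0.19 at 72 h, beside 0.0054, -0.040 and -0.0042 over all genes tested. All 10 genes passed the filter on low counts at every time.

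**Figure D2:**
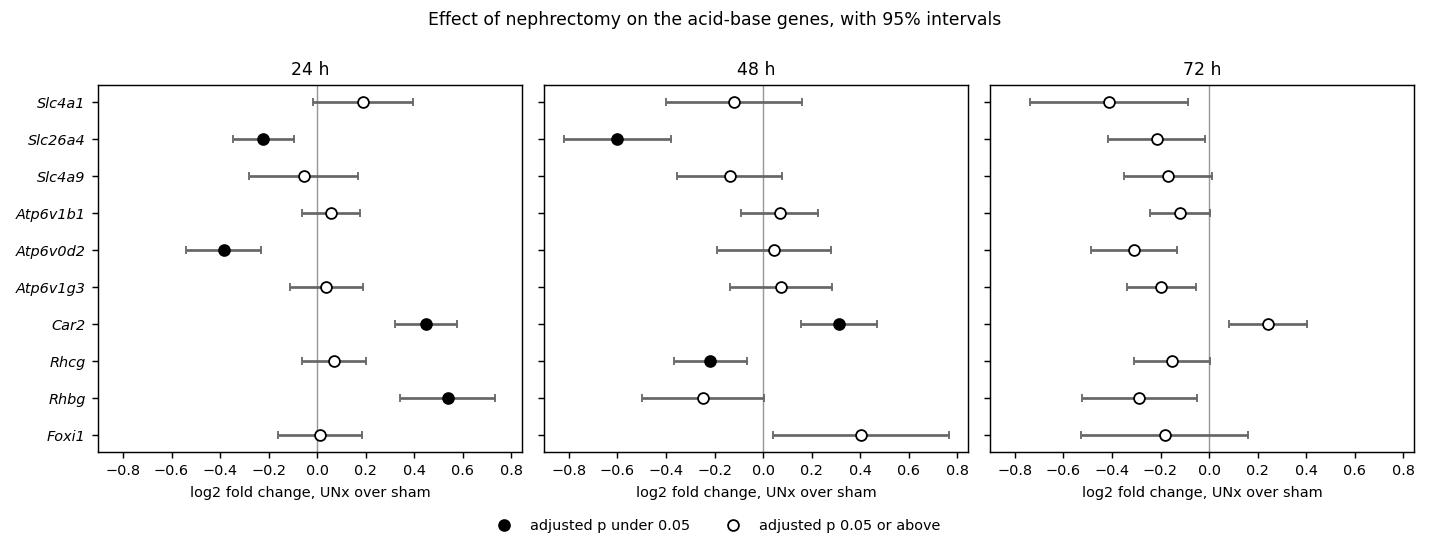
Log2 fold change of UNx over sham for each gene (x axis) at 24, 48 and 72 h, with 95% intervals and 6 libraries a group. Filled points passed an adjusted p of 0.05: Car2 lies to the right of 0 at each time, Slc26a4 to the left, and Rhbg moves from 0.54 at 24 h to -0.29 at 72 h.

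Among the exchangers, Slc26a4 was the one that fell. At 24 h its bulk level had a lowest, median and highest value of 34.3, 39.9 and 42.7 CPM in sham libraries and of 29.6, 34.1 and 35.7 CPM in UNx libraries. The groups overlapped slightly, and all 6 UNx libraries were below the sham mean. The log2 fold change was -0.22 (SE 0.064, edgeR adjusted p = 0.0164), a fall of 14.2%, and the call was lost when all 36 libraries shared 1 fit (-0.23, adjusted p = 0.0921) or with the mitochondrial share as a covariate (-0.21, adjusted p = 0.217). At 48 h the values were 39.1, 47.8 and 55.3 CPM in sham and 27.3, 29.9 and 40.4 CPM in UNx. The log2 fold change was -0.60 (SE 0.11, edgeR adjusted p = 0.00156), and all 6 UNx libraries were again below the sham mean. The highest UNx value, 40.4 CPM, was that of replicate 6, and without replicates 1 to 5 the change was -0.24 (SE 0.19, adjusted p = 0.601). At 72 h, with 37.3, 52.4 and 59.2 CPM in sham and 35.4, 45.2 and 48.5 CPM in UNx, the log2 fold change was -0.22 (SE 0.10, adjusted p = 0.30).

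Slc4a9, the other exchanger of type B cells, was not called in bulk at any time. At 24 h sham libraries ran from 21.9 to 36.8 CPM and UNx libraries from 23.1 to 33.7 CPM, which gives a change of -0.055 (log2, SE 0.11) whose 95% interval was -0.28 to 0.17. At 48 and 72 h the changes were -0.14 (SE 0.11, adjusted p = 0.352) and -0.17 (SE 0.092, adjusted p = 0.375). Without UNx replicates 1 to 5 the 48 h estimate was -0.47 (SE 0.20, adjusted p = 0.337). Slc4a9 is not a measure of type B cells alone, since ICA nuclei held 26.3% of its UMIs. The ratio of Slc26a4 to Slc4a9 within each library was lower in UNx at 48 h by 0.47 on the log2 scale. That difference had p = 0.0173 in a two-sided exact permutation test over 924 splits, and 0.0779 after adjustment over the 9 ratio tests made, so it did not pass. In replicate 6 the ratio was above the sham mean by 0.23, the opposite sign.

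Slc4a1, the type A exchanger, is also made by red cell precursors, and between groups red cell markers had the same direction of change at each time. Its sham values at 24 h were 48.1, 58.1 and 65.5 CPM (lowest, median, highest) and its UNx values 51.1, 65.3 and 80.5 CPM, and the log2 difference was 0.19 (SE 0.11, adjusted p = 0.201). At 48 h it was -0.12 (SE 0.14, adjusted p = 0.541), and -0.58 (SE 0.17, adjusted p = 0.216) without UNx replicates 1 to 5. At 72 h sham values spread from 47.3 to 101 CPM, whereas all 6 UNx libraries lay between 48.6 and 57.6 CPM, and the log2 fold change was -0.41 (SE 0.16, adjusted p = 0.229). The summed level of the 5 red cell markers (Hba-a1, Hba-a2, Hbb-bs, Hbb-bt and Alas2) ranged at 72 h from 442 to 1088 CPM in sham and from 337 to 535 CPM in UNx. All 5 were lower in UNx, with a median log2 fold change of -0.69 and none called. At 24 h all 5 were higher, 2 of them called, with sums of 119 to 189 CPM in sham and 145 to 209.9 CPM in UNx. At 48 h all 5 were lower, 1 of them called, and all 5 were lower without UNx replicates 1 to 5, with none called. The other genes listed as type A markers were lower beside Slc4a1 at 72 h as well: Kit (-0.35, adjusted p = 0.0175) and Dmrt2 (-0.92, adjusted p = 0.0414) were called, and Aqp6 (-0.52, adjusted p = 0.165) and Hmx2 (-0.094, adjusted p = 0.814) were not. Hmx2 did not mark type A nuclei here, at 0.664 CPM in ICA and 162 CPM in ICB. The 5 listed markers, Slc4a1 and Hmx2 among them, had a median of -0.41 and summed to 112 to 212 CPM in sham and 103 to 127 CPM in UNx. Within groups the libraries were mixed. In UNx at 48 h replicates 2 and 3 were highest in Slc4a1 (78.8 and 80.8 CPM) and lowest in the red cell sum (297 and 263 CPM). In sham at 72 h replicate 6 was highest in both, at 101 and 1088 CPM. The part of red cells in the Slc4a1 values was not tested.

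Of the proton pump subunits, Atp6v0d2 was the one called, at 24 h: sham libraries had 36.1, 42.5 and 49.2 CPM (lowest, median, highest) and UNx libraries 29.1, 31.4 and 38.3 CPM. All 6 UNx libraries were below the sham mean, and the highest of them, replicate 6, overlapped the sham range. The log2 fold change was -0.39 (SE 0.078, edgeR adjusted p = 0.00185), a fall of 23.5%, and it was -0.17 (adjusted p = 0.265) with the mitochondrial share as a covariate. At 48 h sham libraries had 23.2, 30.5 and 38.2 CPM and UNx libraries 26.7, 32.3 and 37.3 CPM, with no called difference (0.045, SE 0.12), and the estimate was -0.22 (SE 0.26) without UNx replicates 1 to 5. At 72 h, 27.5, 35.8 and 41.1 CPM in sham stood against 25.5, 28.5 and 32.6 CPM in UNx, with a log2 fold change of -0.31 (SE 0.091) and an adjusted p of 0.0984 in edgeR, 0.0440 in DESeq2 and 0.0370 in limma voom. All 6 UNx libraries were below the sham mean at 72 h too.

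Atp6v1b1 was not called at any time. Its log2 fold changes were 0.058 (SE 0.061), 0.068 (SE 0.082) and -0.12 (SE 0.063) at 24, 48 and 72 h, and its 24 h interval of -0.062 to 0.18 does not reach the fall seen for Atp6v0d2. Their ratio within a library, Atp6v0d2 over Atp6v1b1, was lower by 0.44 (log2) in UNx at 24 h, in 6 of 6 libraries relative to the sham mean. Its exact permutation p was 0.00649, or 0.0584 adjusted over the 9 ratio tests. Atp6v1g3 had log2 fold changes of 0.038 (SE 0.076) at 24 h, 0.074 (SE 0.11) at 48 h and -0.20 (SE 0.072, adjusted p = 0.176) at 72 h. At 48 h, without UNx replicates 1 to 5, Atp6v1b1 was at -0.20 (SE 0.13) and Atp6v1g3 at -0.15 (SE 0.18), so the signs of both estimates changed.

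Car2 was higher in UNx at each time. At 24 h sham libraries had 263, 317 and 349 CPM (lowest, median, highest) and UNx libraries 391, 427 and 449 CPM. The groups did not overlap, as for 10.3% of all genes, and the log2 fold change was 0.45 (SE 0.064, edgeR adjusted p = 0.000179), a rise of 36.5%. At 48 h the values were 292, 311 and 322 CPM in sham and 319, 387 and 445 CPM in UNx, with 1 UNx library inside the sham range. That change was 0.31 (SE 0.0797, edgeR adjusted p = 0.00848), and 0.22 (SE 0.091, adjusted p = 0.331) without UNx replicates 1 to 5. At 72 h the values were 273, 302 and 341 CPM in sham and 306, 363 and 441 CPM in UNx, and the change of 0.24 (SE 0.083) had an adjusted p of 0.147. None of the 10 genes had separate groups at 48 or 72 h, where 11.2% and 1.95% of all genes had.

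Of the ammonia channels, Rhbg, on the blood side, rose at 24 h, from 10.1, 14.7 and 17.4 CPM (lowest, median, highest) in sham to 18.9, 20.6 and 23.6 CPM in UNx, with no overlap between the groups. The log2 fold change was 0.54 (SE 0.0995, edgeR adjusted p = 0.00103), a rise of 45.1%. In the nucleus data intercalated nuclei held 29.6% of Rhbg UMIs (22.3% in ICA and 7.25% in ICB) and CNT held 24.4%. In bulk at 24 h all 3 connecting tubule markers were higher in UNx, with Calb1 (0.67, adjusted p = 0.00222) and Slc8a1 (0.36, adjusted p = 0.0288) called. Trpv5, the third marker, was at 0.052 and not called. The called markers were not particular to CNT nuclei. Calb1 was at 1586 CPM in CNT and 1593 CPM in DCT, and Slc8a1 at 33594 and 20813 CPM, beside 169 and 41.0 CPM for Trpv5. The summed level of the 3 markers in bulk was 299.8 to 419 CPM in sham and 366 to 565 CPM in UNx, and its part in the Rhbg result was not tested. At 48 h sham libraries had 25.1, 30.6 and 38.9 CPM and UNx libraries 22.0, 26.2 and 31.4 CPM, and at 72 h these were 25.7, 37.5 and 48.1 CPM and 29.8, 30.3 and 34.1 CPM. The later changes were -0.25 (SE 0.13, adjusted p = 0.147) and -0.29 (SE 0.12, adjusted p = 0.241), neither called. Without UNx replicates 1 to 5 the 48 h change was -0.15 (SE 0.25). The highest sham level at 24 h was below the lowest at 48 or 72 h, a difference for which time and the labelled batch cannot be told apart.

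Rhcg, the channel of the urinary side, was not called at 24 h, with 45.4, 50.9 and 60.8 CPM in sham and 51.3, 53.8 and 56.0 CPM in UNx (0.069, SE 0.067). At 48 h it fell from 66.5, 74.8 and 86.5 CPM to 59.2, 64.2 and 73.2 CPM, which was a log2 change of -0.22 (SE 0.077, edgeR adjusted p = 0.0424). That call was marginal: it was lost on leaving out any of 8 single libraries of the 12 (sham replicates 3, 4, 5 and 6, UNx replicates 2, 3, 4 and 6), with adjusted p of 0.0520 to 0.0976. Without UNx replicates 1 to 5 the change was -0.21 (SE 0.13, adjusted p = 0.512). At 72 h it was -0.15 (SE 0.081, adjusted p = 0.359).

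Foxi1 was not called at 24 h, with sham libraries from 22.0 to 25.7 CPM and UNx libraries from 20.0 to 29.5 CPM (0.012, SE 0.089). At 48 h its UNx libraries spread widely, from 14.1 to 38.0 CPM with a median of 27.3 CPM, around sham values of 18.0 to 21.2 CPM. The log2 fold change of 0.40 (SE 0.19) had an adjusted p of 0.1103 in edgeR. It passed without replicate 6, the lowest UNx library (0.56, adjusted p = 0.00331), in limma voom (0.48, adjusted p = 0.0152) and in 1 fit of all 36 libraries (0.42, adjusted p = 0.0450). With replicate 6 as the lone UNx library the estimate had the opposite sign, -0.52 (SE 0.11, adjusted p = 0.167). At 72 h the change was -0.18 (SE 0.18, adjusted p = 0.655).

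**Figure D3:**
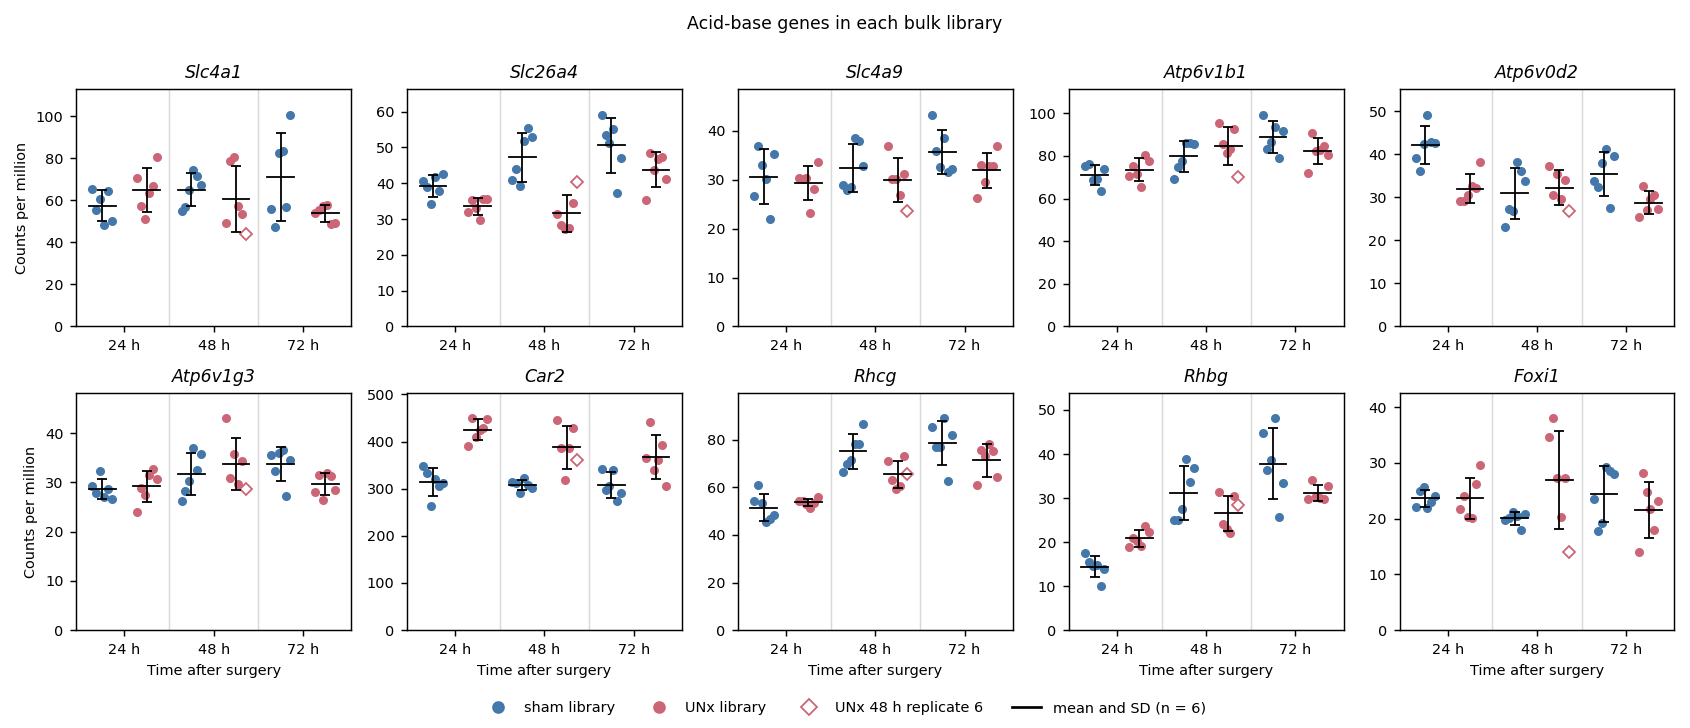
CPM (y axis, from 0) of each gene in the 36 bulk libraries, sham in blue and UNx in red, at 24, 48 and 72 h (x axis). Bars give the mean and SD of 6 libraries, and the open diamond is UNx 48 h replicate 6, which is the lowest UNx library at 48 h for Foxi1 at 14.1 CPM and the highest for Slc26a4 at 40.4 CPM.

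Whether the effect differed between times was tested in 1 fit of the 36 libraries. Between 24 and 48 h, 2 of the 10 genes differed, against 36.7% of 15093 genes. The effect on Atp6v0d2 was higher at 48 h by 0.46 (SE 0.15, edgeR adjusted p = 0.0150), and that on Rhbg lower by 0.76 (SE 0.18, edgeR adjusted p = 0.00118). Neither difference passed without UNx 48 h replicates 1 to 5, where they were 0.18 (adjusted p = 0.738) and -0.67 (adjusted p = 0.210). Between 24 and 72 h only Rhbg differed, with an effect lower by 0.81 at 72 h (SE 0.18, edgeR adjusted p = 0.00818), against 4.07% of genes. That contrast does not use the 48 h means, but the 48 h libraries enter the filter, scaling and spread of the shared fit. The 24 and 72 h libraries lie in different labelled batches, each with its own shams. Between 48 and 72 h edgeR called none of the 10, beside 14.3% of genes. DESeq2 called 1, beside 16.7% of genes, and limma voom 4, beside 26.7%. In edgeR 4 had an unadjusted p under 0.05, as had 28.8% of genes, and none was called without UNx 48 h replicates 1 to 5. The Slc26a4 difference there was 0.37 (SE 0.14, adjusted p = 0.0712).

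Other genes of acid-base handling were counted by list, beside shares over all genes of 13.9% higher and 13.1% lower at 24 h, 16.8% and 15.8% at 48 h, and 1.20% and 0.488% at 72 h. Of the 16 pump subunits made in all cells, 10 rose and 1 fell at 24 h, 6 rose and 2 fell at 48 h, and none was called at 72 h, with medians of 0.18, 0.071 and 0.056. Atp6v0e rose by 0.49 (log2, SE 0.057, adjusted p = 3.5e-05) at 24 h. Atp6v1d, a rotor subunit, fell by 0.47 (SE 0.10, adjusted p = 0.00447) at 24 h and rose by 0.45 (SE 0.071, adjusted p = 0.000574) at 48 h. Atp6ap2, an accessory subunit, was the lowest in p among those that fell at 48 h (-0.53, SE 0.11, adjusted p = 0.00283). Without UNx replicates 1 to 5, Atp6v1d was at 0.27 (SE 0.085, adjusted p = 0.234) and Atp6ap2 at 0.0102 (SE 0.098), so the fall of Atp6ap2 was not present in replicate 6. The narrowly expressed subunits Atp6v0a4 and Atp6v1c2, were not called at any time. Their log2 fold changes lay between 0.038 and 0.062 at 24 h, -0.21 and -0.026 at 48 h (-0.13 and 0.15 without UNx replicates 1 to 5), and -0.28 and 0.0023 at 72 h.

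Of the 7 genes of ammonia production, most of which act in the proximal tubule, 4 rose and 1 fell at 24 h, 3 rose at 48 h and 3 rose at 72 h. Slc38a3, the glutamine carrier that feeds ammonia production, rose by 0.87 (SE 0.092, adjusted p = 2.6e-05), 0.73 (SE 0.11, adjusted p = 0.0005) and 0.70 (SE 0.13, adjusted p = 0.0173) at the 3 times. Aadat fell by 0.63 (SE 0.13, adjusted p = 0.00331) at 24 h. The list's median was 0.49, 0.31 and 0.33. Without UNx replicates 1 to 5 the 48 h change of Slc38a3 was 0.36 (SE 0.18, adjusted p = 0.42). Among 8 carbonic anhydrases without Car2, 1 rose at 24 h, 3 rose and 1 fell at 48 h, and none was called at 72 h. Car15 rose at 24 h (0.36, SE 0.081, adjusted p = 0.0037) and 48 h (0.69, SE 0.11, adjusted p = 0.000588), and Car8 fell at 48 h (-0.77, SE 0.21, adjusted p = 0.0127). Without those 5 libraries Car15 was at 0.295 (adjusted p = 0.309) and Car8 at -0.27 (adjusted p = 0.806) at 48 h.

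Of the bicarbonate, chloride and proton transporters of the tubule, 22 of 23 were tested at 24 and 72 h and 21 at 48 h. At 24 h 6 rose and 3 fell, at 48 h 3 rose and 3 fell, and at 72 h 1 rose. Clcn5, an endosomal chloride and proton exchanger, rose at 24 h (0.34, SE 0.058, adjusted p = 0.000519). Slc26a1, a sulphate exchanger, fell at 24 h (-0.39, SE 0.094, adjusted p = 0.00677) and rose at 48 h (0.36, SE 0.095, adjusted p = 0.0095). Slc26a7, an exchanger of medullary intercalated cells, fell at 48 h (-0.85, SE 0.23, adjusted p = 0.0126), and Slc9a2, a sodium and proton exchanger, rose at 72 h (0.35, SE 0.081, adjusted p = 0.0419). At 48 h without UNx replicates 1 to 5, Slc26a1 was at 0.19 (adjusted p = 0.603) and Slc26a7 at -0.83 (adjusted p = 0.326). Of 9 tested acid sensors and intercalated regulators, 1 rose and 2 fell at 24 h, 1 fell at 48 h and 2 fell at 72 h. Tfcp2l1, a transcription factor of the collecting duct, rose at 24 h (0.38, SE 0.073, adjusted p = 0.00134), and Ptk2b, an acid-sensing kinase, fell (-0.30, SE 0.057, adjusted p = 0.00125). Kit, the receptor that marks type A cells, fell at 48 h (-0.50, SE 0.11, adjusted p = 0.00385) and 72 h (-0.35, SE 0.068, adjusted p = 0.0175). Its 48 h change was -0.44 (SE 0.18, adjusted p = 0.313) without UNx replicates 1 to 5.

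The nucleus data allow the same contrast within intercalated cells at 24 h, with 2 mice a group. Replicate 1 of each group belongs to batch 3 and replicate 2 to batch 4, and the mice of a batch deviated together from their group means (r = 0.741 over genes in ICA and 0.675 in ICB). In ICA the summed counts of Foxi1 gave 76.1 and 77.7 CPM in the sham and UNx mice of batch 3 and 22.6 and 33.3 CPM in those of batch 4. Proximal nuclei showed the reverse: Rhcg there was at 0.625 and 0.653 CPM in batch 3 (sham, UNx) and at 22.8 and 21.4 CPM in batch 4. With no term for batch, edgeR called none of the genes tested in either class (0% of 8778 in ICA and 0% of 8228 in ICB). At an unadjusted p under 0.05 it found 0.342% and 0.328% of them, and none of the listed genes. With the replicate number as a block, 74 genes (0.843%, with 0.387% lower) were called in ICA and 42 (0.510%) in ICB. DESeq2's Wald test with the block called 3 and 0. In each class 9 of the 10 listed genes passed the filter on low counts: Slc26a4 did not in ICA, nor Slc4a1 in ICB.

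Slc4a9 was the listed gene called in the blocked fit, in type A nuclei. Its level was 1760 CPM in the sham and 929 CPM in the UNx mouse of batch 3, and 731 CPM in the sham and 393 CPM in the UNx mouse of batch 4. Both UNx mice were below the sham mouse of their batch, but across batches the groups overlapped. The blocked log2 fold change was -0.90 (SE 0.17, edgeR adjusted p = 0.000101), the fit without the block gave -0.93 (SE 0.66, unadjusted p = 0.221, adjusted p = 1), and DESeq2's Wald test with the block gave an adjusted p of 0.387. A blocked fit of so few mice hardly measures the spread of a single gene. Its SE and edgeR p rest mostly on spread shared across genes. The share of ICA nuclei with a Slc4a9 UMI, after thinning each nucleus to 1754 UMIs, was 70.9% (83 of 117 nuclei, exact 95% interval 61.8% to 79.0%) in sham and 56.1% (55 of 98, 45.7% to 66.1%) in UNx in batch 3. In batch 4 it was 50.0% (14 of 28, 30.6% to 69.4%) and 26.0% (13 of 50, 14.6% to 40.3%). Unthinned shares were 84.6%, 75.5%, 82.1% and 62.0% in the same order. In PTS1 nuclei the thinned share was 0.704%. Median totals per nucleus were 6937 UMIs in ICA and 10874 in PTS1.

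Markers of other cell types moved in the same ICA fit. Slc12a3 and Trpm6, of the distal convoluted tubule, were called lower (-2.58 and -2.09), and the third marker of that class, Pvalb, was at 1.47 to 12.5 CPM in all 4 mice. Slc12a3 was at 13.1 and 16.1 CPM in the sham and UNx mice of batch 3 and at 1016 and 112 CPM in those of batch 4, so the fall was in batch 4. Of the 5 proximal markers, Slc22a6 and Slc7a13 were called higher (1.20 and 1.03), and Lrp2, Slc34a1 and Slc5a2 were not called. In batch 4 Lrp2 (1405 and 1143 CPM in sham and UNx), Slc34a1 (2765 and 1976 CPM) and Slc5a2 (232 and 193 CPM) were lower in UNx. In batch 3 Lrp2 (78.6 and 74.0 CPM) and Slc5a2 (11.9 and 8.79 CPM) were lower too, and Slc34a1 (105 and 122 CPM) was higher. Umod of the thick limb was called higher (0.74), as was Pck1 (1.28), an ammonia and glucose production enzyme of the proximal tubule. The part of RNA from other cells in the Slc4a9 result was not tested. DCT nuclei themselves had 20.1 CPM of Slc4a9, and proximal nuclei 1.57, 1.71, 14.8 and 8.63 CPM in sham 1, UNx 1, sham 2 and UNx 2.

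In type B nuclei no listed gene was called. Slc4a9 there was at 3475 and 5633 CPM in the sham and UNx mice of batch 3 and at 2321 and 1853 CPM in those of batch 4, a blocked log2 fold change of 0.21 (SE 0.23, adjusted p = 0.989). Its effect was higher in ICB than in ICA by 1.14 (SE 0.28, unadjusted p = 0.000601, adjusted p = 0.832), and no gene of the 9683 tested passed for that difference (0%). Slc26a4, which fell in bulk, was at 7062 and 8429 CPM in batch 3 and at 4085 and 4470 CPM in batch 4, so both UNx nucleus samples were above their sham (0.22, SE 0.23, adjusted p = 0.983). Its 95% interval was -0.23 to 0.66, beside the bulk change of -0.22 at 24 h. Car2 was lower in UNx in both batches, at 1397 and 672 CPM and at 454 and 316 CPM (-0.77, SE 0.24, adjusted p = 0.149), whereas bulk Car2 rose. This was not particular to type B nuclei. In proximal nuclei Car2 was at 80.7 and 72.5 CPM in the sham and UNx mice of batch 3 and at 124 and 78.8 CPM in those of batch 4. The cells behind the bulk rise were not tested.

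The remaining genes gave blocked estimates in ICA of -0.15 for Slc4a1 (SE 0.21), 0.077 for Atp6v1b1 (SE 0.19), -0.074 for Atp6v0d2 (SE 0.17), -0.30 for Atp6v1g3 (SE 0.18), -0.25 for Car2 (SE 0.18), -0.029 for Rhcg (SE 0.18), 0.11 for Rhbg (SE 0.23) and 0.17 for Foxi1 (SE 0.36). For Atp6v0d2, which fell in bulk by 0.39, the ICA interval was -0.41 to 0.26 and the ICB interval -0.22 to 0.69. In the other 21 classes no listed gene that passed the filter was called with the block, beside 0% to 2.47% of all genes, the highest share being that of the proximal class PTS2. Intercalated nuclei made up 2.66% (142 of 5342 nuclei, exact 95% interval 2.24% to 3.13%) and 2.76% (73 of 2641, 2.17% to 3.46%) of nuclei in the sham mice, and 2.91% (150 of 5151, 2.47% to 3.41%) and 2.64% (89 of 3366, 2.13% to 3.24%) in the UNx mice. The split between the types varied within groups: ICA took 117 of the 142 intercalated nuclei in sham 1 and 28 of 73 in sham 2. No test of these shares was made, since 2 mice against 2 cannot go below p = 0.333 in a two-sided exact permutation test.

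**Figure D4:**
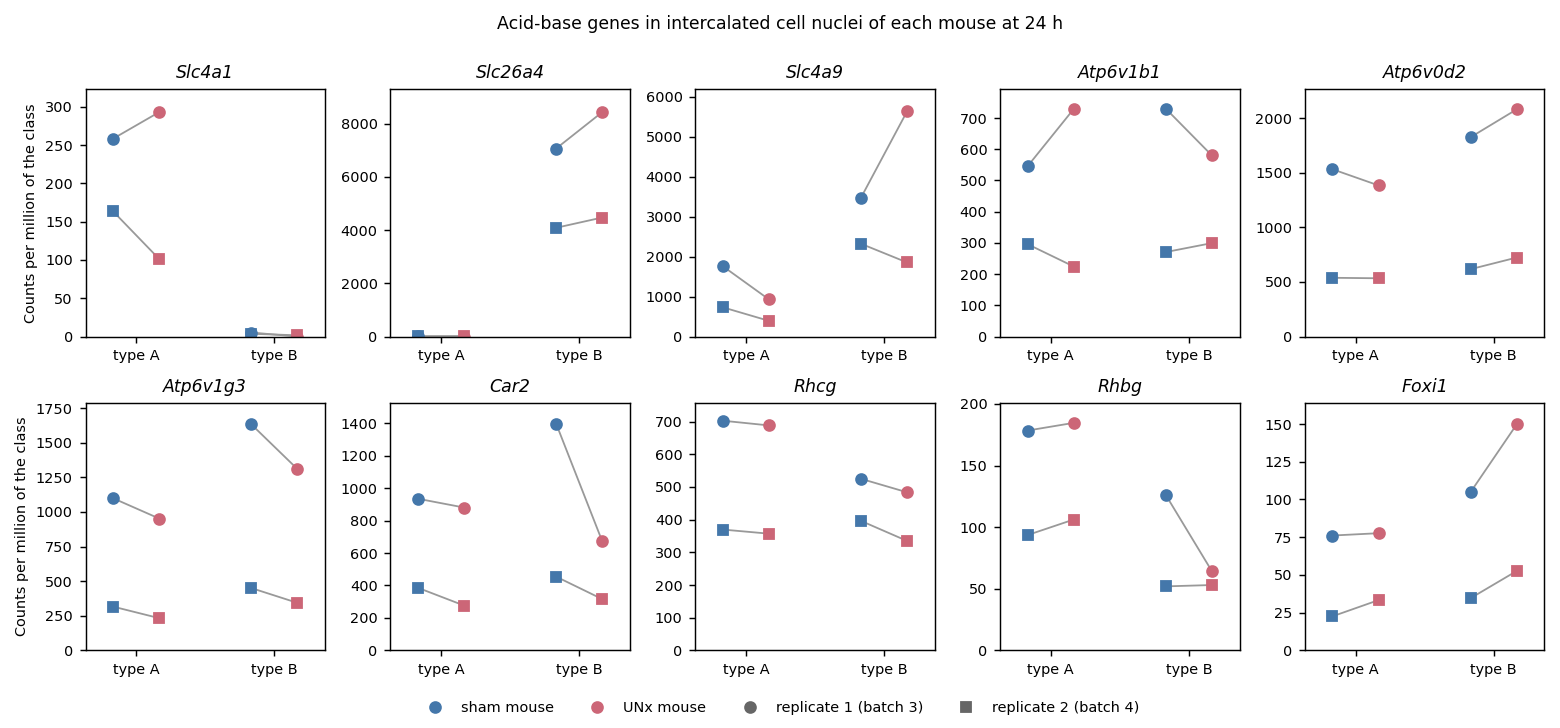
CPM (y axis, from 0) of each gene in type A (ICA) and type B (ICB) nuclei of the 4 mice at 24 h; lines join the sham (blue) and UNx (red) mouse of a batch. Slc4a9 in type A nuclei falls along both lines, from 1760 to 929 CPM and from 731 to 393 CPM, and the circles of batch 3 lie above the squares of batch 4 for most genes.

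Genes whose pattern over the 23 classes was like that of a member were taken, leaving out the 10 members themselves, as the 3 with the highest Pearson correlation, as a description over classes that share libraries, from 12387 genes. Of these genes outside the list, Slc26a4 was nearest to Lsamp (r = 0.955), which had 6586 CPM in ICB and 72.6 CPM in ICA. Slc4a1 was nearest to Samd7 (r = 0.880) and Dmrt2 (r = 0.821), and Slc4a9 to Atp6v1c2 (r = 0.920), the narrow pump subunit. Tfcp2l1 was among the 3 genes nearest to Atp6v1b1 (r = 0.928). Kctd16 and Sctr, the secretin receptor, were among the 3 nearest genes outside the list for Atp6v0d2, Atp6v1g3 and Foxi1. Rhcg was nearest to Scnn1b (r = 0.909), the beta subunit of the sodium channel of principal cells, Rhbg to Asb15 (r = 0.860) and Car2 to Clcn5.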

How the data were processed

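The authors deposited 1 table of estimated counts per gene for the 36 bulk libraries (TruSeq Stranded mRNA kit) and 1 table of estimated UMI counts for the 4 nucleus libraries (10x 3' v3), with their class annotation. Per the submitters' processing notes the tools were FastQC 0.11.8, Salmon 1.5.0, alevin and Seurat, with GRCm39 and mm10 as builds. No doublet caller was run, and how doublets were treated upstream is not given in the sources used here. Of the bulk values 34.1%, and of the nucleus values above 0 13.9%, were not whole. Counts were rounded before testing.

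Each library comes from 1 mouse by its label. Bulk counts were filtered with filterByExpr, scaled by TMM and tested at each time with edgeR 4.0.16 (quasi-likelihood, robust) in R 4.3.3, with Benjamini-Hochberg adjustment over all genes and a threshold of 0.05. Differences between times came from 1 fit of 36 libraries. Printed bulk CPM use 1 TMM scaling over the 36 libraries. Nucleus counts were summed per mouse and class and tested in the same way, without and with the replicate number as a block. Same-numbered nucleus samples share a labelled batch, and their deviations from group means correlated at 0.741 in ICA and 0.675 in ICB. Of the nuclei, 18 barcodes occurred in more than 1 library, and for shares each nucleus was thinned to 1754 UMIs. Binomial intervals are exact Clopper-Pearson and cover counting error only.

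The members and gene lists were chosen with earlier results of these data known. All 10 members were named. From each other pathway list, the rise and the fall of smallest p among called genes were named at each time, together with all genes of lists of 5 or fewer. DESeq2 1.42.0, limma 3.58.1 (voom), other filters and scalings, covariates and left-out libraries were alternatives. The ratios, the 48 h values of other lists without 5 libraries, the thinning, the class difference and the blocked fits with another scaling, test or filter were chosen after seeing the data. The fits were tested on simulated data: at 24 h in bulk, 73.5% of genes changed by 1.5-fold were recovered, at 48 h 65.0% and at 72 h 70.0%. At 1.25-fold these shares were 27%, 2.5% and 19.1%, so small changes were mostly missed. In ICA, 55.0% of genes changed by 2-fold were recovered with the block and 0% without it. In ICB these shares were 25% and 0%. Of genes changed by 1.5-fold, the block recovered 2.5% in ICA and 0% in ICB. False calls made up 16.7% of the blocked ICA calls at 1.5-fold (1 false call), 5.98% at 2-fold and 5.56% at 3-fold. In ICB these shares were 0%, 1.96% and 1.96%. For each member the 3 genes outside the list most like it over classes of nuclei were compared, and 1 of these is not reported here.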

Additional observations from a re-analysis of the deposited data

Results flagged for a closer look

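Atp6v0d2 in UNx replicate 6 at 24 h had 38.3 CPM, against 32.5 CPM in the nearest and 29.1 CPM in the lowest of the other 5 UNx libraries, a gap of 0.627 of the group's range. It was the only such value among 60 sets of 6 examined, which are each of the 10 genes in each bulk group and share the same libraries. Chance gives about 1 in 20 sets, so 1 in 60 is no more than chance gives.

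The effect of nephrectomy differed between 24 and 48 h for Atp6v0d2, by 0.46 on the log2 scale, and for Rhbg, by -0.76. For Rhbg it also differed between 24 and 72 h, by -0.81. These are interaction tests in edgeR over libraries of different labelled batches.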

How the results depend on the processing

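With the mitochondrial share as a covariate, 2 of the 10 genes were called at 24 h and 0 at 48 h, and 0 differed between 24 and 48 h. Over all genes 623 in place of 3815 were then called at 24 h, 0 in place of 4656 at 48 h, and 1 in place of 5544 for that difference. At 48 h the share was 14.0% to 15.5% in sham, 25.8% to 26.4% in UNx replicates 1 to 5 and 15.2% in UNx replicate 6. The covariate and the operation can therefore not be told apart at 48 h except through replicate 6. The cause of the lost calls was not tested. That covariate turned Slc4a9 at 24 h to 0.047, the 48 h estimates of Atp6v1b1, Atp6v0d2, Atp6v1g3 and Foxi1 to -0.22, -0.26, -0.16 and -0.53, and the Atp6v0d2 difference between 24 and 48 h to -0.015. Without UNx replicates 1 to 5 of 48 h, which leaves 1 UNx library assumed to vary like the shams, 0 were called at 48 h, of all genes too, and 0 differed between 24 and 48 h. Those 4 genes were then at -0.20, -0.22, -0.15 and -0.52. At 72 h DESeq2's Wald test called 1 and limma voom 1, and between 48 and 72 h they called 1 and 4. Over all genes at 72 h, edgeR called 245, DESeq2 673 and limma voom 809. In limma voom Foxi1 at 24 h was -0.0032.

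Leaving out 1 library at a time gave 0 to 3 called at 72 h: 3 without sham replicate 5 (Atp6v0d2, Atp6v1g3 and Rhbg) and 1 without UNx replicate 6 (Car2). It gave 2 to 4 differences between 24 and 48 h (4 in 11 of 36 settings), 0 to 3 between 48 and 72 h (above 0 in 7 of 36, and 3 without UNx 48 h replicate 6), and 107 to 666 genes called in all at 72 h. With all libraries 1.68% of genes were called at 72 h, 36.7% differed between 24 and 48 h and 14.3% between 48 and 72 h. Shares over all genes are not given for each left-out fit, so these counts of members are not read as results about them. Estimates near 0 changed sign: Slc4a9 at 24 h ran from -0.13 to 0.0053, Foxi1 at 24 h from -0.060 to 0.053, Atp6v0d2 at 48 h from -0.025 to 0.12 and Atp6v1g3 at 48 h from -0.0056 to 0.14.

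In bulk the replicate numbers did not pair the samples: same-numbered deviations correlated at -0.359 to 0.139, with 2 of 18 pairs above 0.1 and 1 sham library correlating best with its own number. The block left Rhcg at 48 h with an adjusted p of 0.0574 and 126 genes called in all at 72 h. In ICA nuclei the replicate block gave 1 called listed gene, Slc4a9, as did the replicate block with DESeq2 size factors (1) and with no filter (1). Slc4a9 was not called by DESeq2's Wald test with the block. Over all genes in ICA, the block called 74 in edgeR, 74 with DESeq2 size factors, 68 with no filter and 3 in the Wald test. In ICB these counts were 42, 7, 30 and 0. The replicate block with no filter put Rhcg in ICA at 0.014 and Atp6v1b1 in ICB at 0.0053.

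Without the block, leaving out 1 mouse leaves a group with 1 mouse, assumed to vary like the other group. In ICA the estimates ran from -1.61 (without UNx 1) to -0.15 (without sham 1) for Slc4a9, none called, -0.99 to 0.42 for Slc4a1, -0.85 to 0.74 for Atp6v1b1, -0.90 to 0.83 for Atp6v0d2, -1.55 to 0.90 for Atp6v1g3, -1.20 to 0.58 for Car2, -0.53 to 0.51 for Rhcg, -0.30 to 0.66 for Rhbg and -0.55 to 1.30 for Foxi1. In ICB they ran from -0.26 to 0.70 for Slc26a4, -0.58 to 0.93 for Slc4a9, -0.73 to 0.73 for Atp6v1b1, -0.69 to 1.21 for Atp6v0d2, -1.53 to 0.90 for Atp6v1g3, -1.50 to 0.15 for Car2, -0.39 to 0.087 for Rhcg, -1.10 to 0.21 for Rhbg and -0.25 to 1.56 for Foxi1. As a share of distal nephron and collecting duct nuclei, intercalated nuclei were 15.1% and 12.1% in sham and 16.9% and 14.7% in UNx mice. For single genes, the direction and side of the threshold held in 189 of 200 bulk settings at 24 h, 179 of 210 at 48 h and 194 of 200 at 72 h, and in 79 of 99 in type A and 83 of 99 in type B nuclei. For the nuclei the reference was the fit without the block, which called no gene. The side of the threshold there is therefore no measure of how stable a result is. In type A, 3 settings passed the threshold where the reference did not, and these were the blocked calls of Slc4a9.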
